A study of Mus musculus with 304 samples.

Results

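The Slit, Robo and netrin guidance genes are 10 of the 22800 genes counted in single mouse dentate granule cells: Slit1, Slit2, Slit3, Robo1, Robo2, Robo3, Dcc, Unc5c, Ntng1 and Ntng2. They were chosen by symbol from these families, with earlier results of these data known, and all 10 have a row in the count table. They are not the whole families, and other genes of these, such as Ntn1 and Unc5a, are given further below. Patch-seq was used, in which the cytosol of a recorded cell is drawn into the pipette and its RNA is sequenced. The 5 groups held 248 cells labelled as passing quality control. Control cells (31, labelled DG) came from mice without an injection. Day 1 cells (58, KA1_DG_ipsi) and day 14 cells (29, Kainate_DG) were taken 1 and 14 days after 70 nl of 5 mM kainic acid, an agonist of kainate-type glutamate receptors used to induce seizures, had been injected into the hippocampus. GFP cells (59, GFP_Control) and Id2 cells (71, Id2_OE) were taken 1 month after injection of an adeno-associated virus carrying GFP or Id2, an inhibitor of basic helix-loop-helix transcription factors. The labels give no strain, age, sex, promoter or dose of the virus.

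No label names an animal, so each group counted as 1 sample, and no p-value or standard error could be given for any difference below. Levels are in CPM, the sum of a group's counts of a gene divided by the sum of all its counts and multiplied by 1e6. Intervals are 95% ones, exact Poisson for summed counts and exact Clopper-Pearson wherever a share of cells is given, and both cover counting error only, since reads are not independent molecules and cells may share an animal. Titles of control cells belong to other series than those of kainate cells and of GFP cells, and those of day 1 and day 14 cells to different number ranges, so that in these comparisons a batch, if there was one, cannot be told apart from the group. The median cell had 1738610 reads among control cells and between 3317227 and 7615492 in the other groups. All 13 granule cell markers had reads in every group. Their summed level was 4151 CPM in control cells, 1980 on day 1, 2097 on day 14, 4406 among GFP cells and 3048 among Id2 cells. Microglia markers (14 genes, all with reads except P2ry12 on day 1) summed to 3547 CPM in control cells, 773 on day 1, 6342 on day 14, 179 among GFP cells and 583 among Id2 cells. The number of cells above 1000 CPM of these markers was 18, 7, 20, 2 and 11 in the same order, and these cells are called microglia-rich below. The median cell had 1364, 39.6, 3119, 3.56 and 52.9 CPM of them. The lists for astrocytes, oligodendrocytes and their precursors, interneurons, CA pyramidal cells, mossy cells and endothelial cells summed to at most 421, 369, 1184, 145, 82.5 and 4.68 CPM in any group. Id2 itself stood at 93.2 CPM in GFP cells and 37369 CPM in Id2 cells, and at 127.9 CPM in control cells, 1247 on day 1 and 422 on day 14.

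Slits are secreted proteins that bind Robo receptors and classically repel growing axons. Netrins are secreted proteins that attract axons through Dcc and repel them through Unc5 receptors. The netrin-Gs, encoded by Ntng1 and Ntng2, are unlike classical netrins held to the membrane by a lipid anchor and bind synaptic adhesion proteins (Lrrc4c and Lrrc4) in place of Dcc. In the dentate gyrus the mossy fibers, which are the axons of granule cells, follow cues of these kinds on their way to CA3.

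In the GENCODE annotation of GRCm38, all 10 members are protein-coding genes. Slit1 lies on the minus strand at chr19:41600257-41743665, Slit2 on the plus strand at chr5:47983138-48307733 and Slit3 on the plus strand at chr11:35121224-35708507. Robo1 (chr16:72308306-73046095, plus strand) and Robo2 (chr16:73891839-74411825, minus strand) are neighbours on 1 chromosome, and Robo3 lies at chr9:37415669-37433246 on the minus strand. Unc5c lies at chr3:141465216-141834924 on the plus strand, Ntng1 at chr3:109780040-110144011 on the minus strand and Ntng2 at chr2:29194541-29253005 on the minus strand. Exons of Unc5c overlap those of the antisense gene Gm15688 over a short stretch, and exons of Ntng2 overlap those of 6530402F18Rik over 558 bases on the same strand. Neither overlapping gene has a row in the count table. The sources used here do not say whether reads were assigned by strand, so reads from the Unc5c stretch cannot be told apart. Those from the Ntng2 stretch could not be told apart by strand in any case.

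Slit2 and Slit3 share a feature that the choice of genes did not use. Each holds, in an intron and on its own strand, a gene for the same microRNA, miR-218. The bases of the mature miR-218-5p lie at chr5:48223966-48223986 in Slit2 and chr11:35616840-35616860 in Slit3. The mature sequences from RefSeq (GRCm38.p6) are printed to show that both loci give the same microRNA, with the seed (bases 2 to 8) in capitals.
mmu-miR-218-5p from Mir218-1 in Slit2: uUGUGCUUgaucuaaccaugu
mmu-miR-218-5p from Mir218-2 in Slit3: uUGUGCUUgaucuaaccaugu
Neither microRNA gene has a row in the count table, and mature microRNAs were not measured.

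Basic helix-loop-helix factors, whose DNA binding is blocked by Id proteins, bind the motif CANNTG, the E-box. RefSeq promoter entries (GRCm38.p6) were matched by symbol for 8 of the 10 members, with 10 start sites. In the 250 bases before each start, 6 of 10 windows held the motif, counted on 1 strand because it is its own reverse complement in form. This was close to its share among all promoter windows of the same length, 66.2% of 32851. Windows with the motif belonged to Robo1, Robo2, Robo3 and Ntng2, and windows without it to Slit2, Slit3, Unc5c and Ntng1. Robo2 had several start sites, each with the motif, so windows are not independent genes, and the window of 1 is printed. The windows of Robo1, Unc5c, Ntng1 and Ntng2 lay wholly inside the GENCODE gene. Sequences of 3 of these genes are shown because their levels are compared below, up to the first annotated exon base of each gene, with each match in capitals.
Slit2, chr5:47982905-47983137, plus strand: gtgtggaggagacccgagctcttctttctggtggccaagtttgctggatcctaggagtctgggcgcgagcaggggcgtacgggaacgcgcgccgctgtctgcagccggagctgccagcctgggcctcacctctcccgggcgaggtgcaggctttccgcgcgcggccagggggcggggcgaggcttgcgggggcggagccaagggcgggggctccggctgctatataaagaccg
Robo2, chr16:74411826-74412075, minus strand: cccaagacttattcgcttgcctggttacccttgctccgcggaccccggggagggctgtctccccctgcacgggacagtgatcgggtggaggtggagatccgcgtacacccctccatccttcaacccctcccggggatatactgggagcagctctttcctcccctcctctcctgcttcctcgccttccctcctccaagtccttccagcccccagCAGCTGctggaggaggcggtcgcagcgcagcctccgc
Robo3, chr9:37433247-37433425, minus strand: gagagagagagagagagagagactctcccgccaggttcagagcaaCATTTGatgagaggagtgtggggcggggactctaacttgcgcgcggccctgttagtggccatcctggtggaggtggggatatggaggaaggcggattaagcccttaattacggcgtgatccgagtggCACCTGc
The Slit2 stretch held 0 matches, the Robo2 stretch 1 (CAGCTG) and the Robo3 stretch 2 (CATTTG and CACCTG). A match is a description of the letters only.

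Slit1, a Slit of the nervous system, stood high in control and GFP cells and lower in the other 3 groups. It was at 387 CPM (95% interval 382.8 to 392.2) in control cells, 82.5 (81.6 to 83.3) on day 1, 45.9 (45.1 to 46.8) on day 14, 401 (398 to 403) in GFP cells and 76.05 (75.01 to 77.1) in Id2 cells. Per kilobase of exon it was first of the 10 in control cells (65.4 CPM per kb) and GFP cells (67.7). In single cells Slit1 ran from 0 to 1610 CPM with a median of 262 among control cells, and from 0 to 2204 with a median of 117.1 among GFP cells. The median cell was at 0 on day 1, on day 14 and with Id2, where the highest cells reached 699, 563 and 1172 CPM. All groups thus overlapped, with the low groups holding fewer cells at a high level. The share of cells at or above 10 CPM was 67.7% (48.6% to 83.3%) in control cells, 27.6% (16.7% to 40.9%) on day 1, 41.4% (23.5% to 61.1%) on day 14, 62.7% (49.1% to 74.96%) among GFP cells and 29.6% (19.3% to 41.6%) among Id2 cells. After every cell had been thinned to 100000 reads, the shares with a read were 68.97%, 27.6%, 41.4%, 66.1% and 29.6% in the same order.

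The level of those cells that had a read also differed between groups. Among cells with at least 1 read of Slit1, the median was 400 CPM in 23 control cells, 209 in 21 day 1 cells and 72.5 in 13 day 14 cells. It was 351 CPM in 42 GFP cells and 17.7 in 35 Id2 cells. The Id2 group thus had reads in 49.3% of cells against 71.2% with GFP, mostly at a low level. These medians are descriptions and were not tested.

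Against control cells Slit1 was 4.70-fold lower on day 1 (95% interval 4.63 to 4.77) and 8.44-fold lower on day 14 (8.25 to 8.62). The log2 ratios after adding 1 CPM were -2.22 and -3.05. Against GFP cells it was 5.27-fold lower with Id2 (5.19 to 5.35), a log2 ratio of -2.38. The GFP cells themselves stood beside the control cells, with a log2 ratio of 0.05. Slit1 in Id2 cells was lower than in GFP cells within both sets of titles that the 2 groups share: 59.9 against 306 CPM in the first and 109.8 against 765 in the second. Without the microglia-rich cells the levels were 454 CPM in control cells, 79.3 on day 1, 44.1 on day 14, 406 among GFP cells and 83.5 among Id2 cells. The sign and a difference past 2-fold stayed in each of the 13, 13 and 12 alternatives run for day 1, day 14 and Id2. The control cells were themselves uneven, with 294 CPM in the 22 whose titles begin with J and 590 in the other 9.

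**Figure D1:**
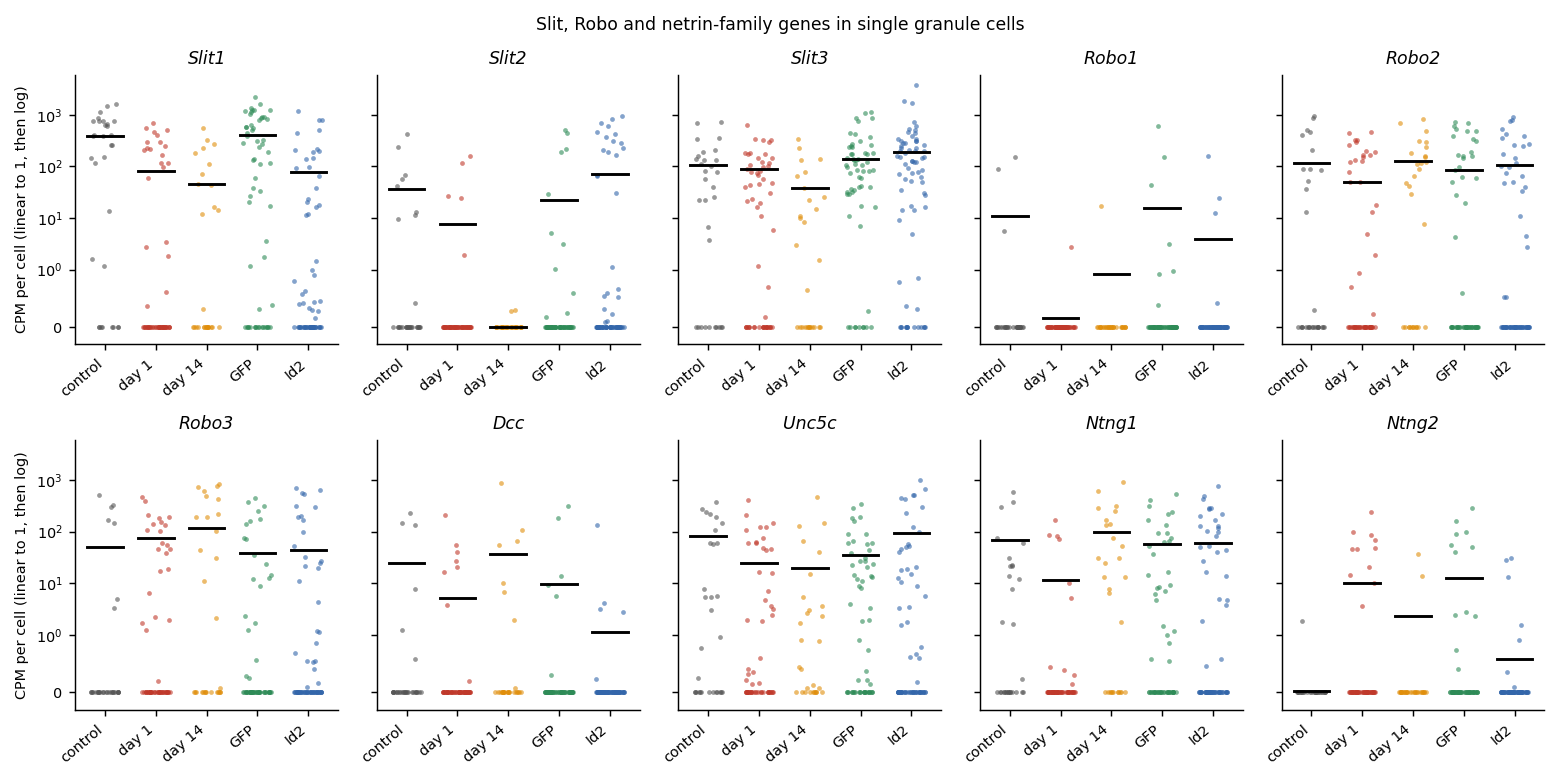
Level of each member in every cell, in CPM on an axis that is linear up to 1 and logarithmic above, with 1 point for each of the 248 cells and a black bar for the CPM of the group's summed counts. Cells at 0 CPM are found for every member in every group, and for Slit1 the bars of day 1, day 14 and Id2 cells (82.5, 45.9 and 76.05 CPM) lie below those of control and GFP cells (387 and 401).

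Slit2 was a gene of few cells in each group. Its level was 36.8 CPM (35.4 to 38.3) in control cells, 7.65 (7.40 to 7.90) on day 1, 22.3 (21.7 to 22.95) among GFP cells and 70.7 (69.7 to 71.8) among Id2 cells. Day 14 cells had 2 reads in all. The median cell was at 0 in every group, and the highest cells were at 432 CPM in control cells, 161 on day 1, 0.299 on day 14, 508 among GFP cells and 937 among Id2 cells. At or above 10 CPM were 22.6% of control cells (9.59% to 41.1%), 6.90% on day 1 (1.91% to 16.7%), 0 of 29 cells on day 14 (0% to 11.9%), 8.47% among GFP cells (2.81% to 18.7%) and 22.5% among Id2 cells (13.5% to 34%). High cells thus had their smallest shares after kainate, though the day 1 share was close to that of GFP cells. They were more frequent with Id2 than with GFP, with overlapping intervals.

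For Slit2 the fold to control cells was 4.82-fold lower on day 1 (4.57 to 5.07). On day 14, with its 2 reads, the ratio was 4786-fold lower with a counting interval of 1323 to 39541. With Id2 the level was 3.17-fold higher than with GFP (3.07 to 3.27), a log2 ratio of 1.62, and it stayed past 2-fold in each of 12 alternatives, including both title sets (82.99 against 26.04 CPM, and 45.1 against 7.94). The control level rested on few cells. In control cells 52.5% of the Slit2 reads came from 1 cell, without which the level was 19.03 CPM, and without the microglia-rich cells it was 5.78 CPM, below the 8.48 CPM of the day 1 cells treated the same way. The log2 ratio of day 1 to control was then 0.48 in place of -2.13, and the part of microglia-rich cells in the difference was not tested further. On day 1, too, 71.8% of the reads came from 1 cell.

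Slit3 was a gene of many cells, with a read in 55.2% to 84.7% of the cells of each group. Its level was 103.96 CPM (101.5 to 106.4) in control cells, 89.5 (88.7 to 90.4) on day 1, 38.9 (38.2 to 39.7) on day 14, 141 (139 to 143) among GFP cells and 192 (190.0 to 193) among Id2 cells. Single cells had medians of 39.3, 20.5, 1.53, 86.7 and 92.9 CPM in the same order, each with a lowest cell of 0 and highest cells of 735, 645, 332, 1130 and 3766. The shares at or above 10 CPM were 61.3%, 55.2%, 41.4%, 81.4% and 71.8%. Slit3 was thus lowest on day 14, where it was 2.67-fold lower than in control cells (2.59 to 2.75) and stayed past 2-fold in each of 13 alternatives. On day 1 the log2 ratio to control was -0.21, and with Id2 against GFP 0.44. In day 1 and Id2 cells, in which Slit1 stood low, Slit3 was the first of the 10 members per kilobase of exon, at 14.8 and 31.6 CPM per kb against 13.9 and 12.8 for Slit1.

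Among the Robo receptors, Robo2 and Robo3 were measured and Robo1 was not. To count as measured, a gene needed a read in no fewer than 20% of a group's cells, and 5 CPM in 1 of the groups compared. Robo1 had reads in 3 control cells, 1 day 1 cell, 1 day 14 cell, 7 GFP cells and 4 Id2 cells. Its summed levels of 10.9, 0.164, 0.916, 15.4 and 3.92 CPM came for 61.1% to 100% from a single cell, so no ratio is given.

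Robo2, a Slit receptor of the classical type, was at 117.7 CPM (115.1 to 120.3) in control cells, 50.8 (50.1 to 51.4) on day 1, 128.9 (127.5 to 130.3) on day 14, 83.6 (82.4 to 84.8) among GFP cells and 106.8 (105.5 to 108.03) among Id2 cells. The median cell was at 47.97 CPM on day 14 and at 0 in the other groups, and highest cells ran from 467 CPM on day 1 to 965 in control cells. At or above 10 CPM were 38.7% of control cells (21.9% to 57.8%), 32.8% on day 1 (21.01% to 46.3%), 58.6% on day 14 (38.9% to 76.5%), 35.6% among GFP cells (23.6% to 49.1%) and 30.99% among Id2 cells (20.5% to 43.1%). Day 14 cells thus carried Robo2 most often. Robo2 on day 1 was 2.32-fold lower than in control cells (2.26 to 2.38) and 2.54-fold lower than on day 14 (2.50 to 2.58). The second difference stayed past 2-fold in each of 10 alternatives, and the first in 8 of 13, with a log2 ratio of -0.71 where GFP cells took the place of control cells. Among Id2 cells 40.99% of the Robo2 reads came from 1 cell. Without the top cell of each group the levels were 66.2 CPM with Id2 and 69.7 with GFP. For Id2 against GFP the log2 ratio of 0.35 joined opposite values in the 2 title sets, 1.07 in the first and -1.85 in the second.

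Robo3 encodes a divergent Robo receptor known from the midline crossing of commissural axons, where it does not act as a simple Slit receptor. Its level was 50.2 CPM (48.5 to 51.9) in control cells, 73.9 (73.1 to 74.7) on day 1, 118.3 (117.003 to 119.7) on day 14, 38.9 (38.1 to 39.8) among GFP cells and 43.8 (42.97 to 44.6) among Id2 cells. Highest cells were at 509, 471, 846, 447 and 710 CPM, and the median cell was at 0 except on day 14, where it was at 0.0675. At or above 10 CPM were 5 of 31 control cells (16.1%, 5.45% to 33.7%), 17 of 58 on day 1 (29.3%, 18.1% to 42.7%) and 13 of 29 on day 14 (44.8%, 26.4% to 64.3%). The shares with GFP (23.7%, 13.6% to 36.6%) and Id2 (23.9%, 14.6% to 35.5%) lay beside each other. Robo3 thus had larger shares of positive cells at both times after kainate than in control, with overlapping intervals, and was the first of the 10 per kilobase of exon on day 14 (17.3 CPM per kb). The fold to control was 2.36-fold higher on day 14 (2.28 to 2.45), with a log2 ratio of 1.22. Without the microglia-rich cells it was 0.69, from 9 day 14 cells and 13 control cells. On day 1 the log2 ratio was 0.55, and it took the opposite sign in 4 of 13 alternatives.

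**Figure D2:**
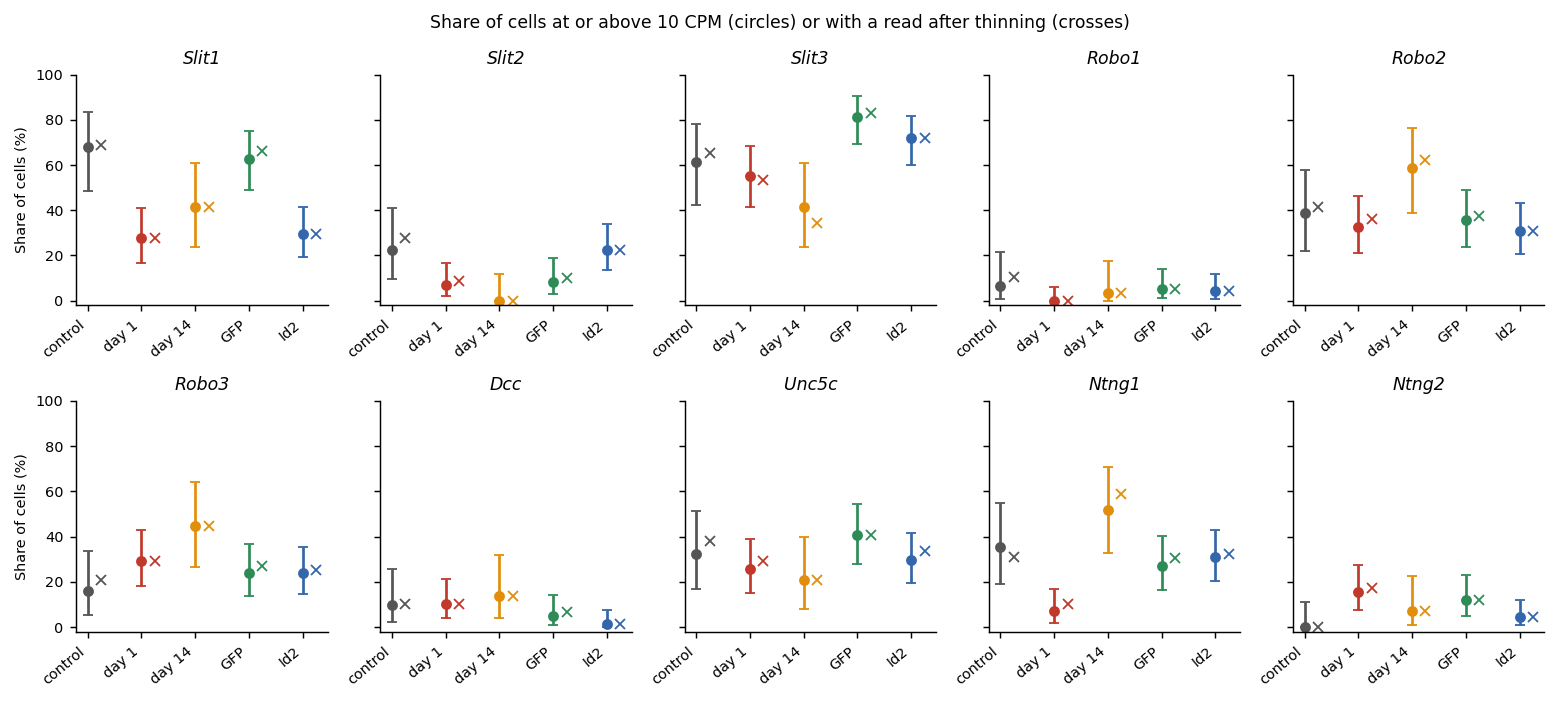
Share of cells of each group, in %, at or above 10 CPM of each member (circles with exact 95% Clopper-Pearson intervals) and with a read after thinning each cell to 100000 reads (crosses). The Slit1 circles of control and GFP cells (67.7% and 62.7%) lie above those of the other 3 groups, while the Robo3 circles go from 16.1% in control cells to 44.8% on day 14.

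Of the netrin receptors, Dcc was rare and Unc5c widespread. Dcc, the receptor for attraction by netrins, was at 24.9 CPM in 6 control cells, 5.18 in 8 day 1 cells, 36.4 in 8 day 14 cells, 9.90 in 6 GFP cells and 1.15 in 5 Id2 cells. It was measured only where day 14 cells were compared. Its log2 ratio was 0.53 for day 14 against control, with the same sign in 10 of 13 alternatives, and -2.60 for day 1 against day 14. On day 14, however, 1 cell held 70.3% of the Dcc reads, and the level without it was 11.1 CPM. Without the microglia-rich cells control stood at 34.6 CPM, day 1 at 5.74 and day 14 at 2.01. The log2 ratio of day 14 to control was then -3.57, and that of day 1 to day 14 was 1.17.

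Unc5c, a receptor for repulsion by netrins, was at 83.7 CPM (81.5 to 85.9) in control cells, 24.8 (24.4 to 25.3) on day 1, 19.7 (19.1 to 20.2) on day 14, 35.9 (35.1 to 36.7) among GFP cells and 92.8 (91.6 to 93.9) among Id2 cells. Medians were 0.959, 0.0727, 0.440, 1.89 and 0 CPM, and highest cells 371, 414, 468, 338 and 1005. The shares at or above 10 CPM were 32.3%, 25.9%, 20.7%, 40.7% and 29.6%, with overlapping intervals. Unc5c thus had a read in 45.1% to 65.5% of the cells of a group but stood high in few. Against control it was 3.37-fold lower on day 1 (3.26 to 3.48) and 4.25-fold lower on day 14 (4.09 to 4.42). The difference stayed past 2-fold in 10 of 13 alternatives for day 1 and 9 of 13 for day 14, and after thinning the log2 ratios were -0.87 and -0.67 in place of -1.71 and -2.03. On day 14, 58.6% of the reads came from 1 cell, and the level was 8.34 CPM without it. The GFP cells, too, were 2.33-fold lower than the control cells (2.25 to 2.41), and against GFP cells the log2 ratio of day 1 was -0.51. With Id2 the level was 2.59-fold higher than with GFP (2.52 to 2.65), but 51.5% of the Id2 reads came from 1 cell, without which it was 47.3 CPM. The log2 ratio of 1.35 was 1.70 in the first title set and -0.12 in the second.

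Ntng1 (netrin-G1, which binds Lrrc4c) had the widest ratio between the days after kainate among the 7 members measured there. Its level was 69.3 CPM (67.4 to 71.4) in control cells, 11.4 (11.1 to 11.7) on day 1, 100.3 (99.1 to 101.5) on day 14, 58.3 (57.3 to 59.3) among GFP cells and 59.3 (58.3 to 60.2) among Id2 cells. The median cell was at 13.1 CPM on day 14 and at 0 elsewhere, and the highest cells were at 581, 171, 930.2, 533 and 751 CPM. At or above 10 CPM were 11 of 31 control cells (35.5%, 19.2% to 54.6%), 4 of 58 on day 1 (6.90%, 1.91% to 16.7%), 15 of 29 on day 14 (51.7%, 32.5% to 70.6%), 27.1% among GFP cells (16.4% to 40.3%) and 30.99% among Id2 cells (20.5% to 43.1%). Few cells carried Ntng1 on day 1 and most did on day 14. The intervals of these 2 shares did not overlap, but they cover counting error only, and the difference was not tested. Day 1 was 8.77-fold lower than day 14 (8.52 to 9.04), a log2 ratio of -3.03 that stayed past 2-fold in each of 10 alternatives. Without the microglia-rich cells the levels were 11.6 CPM on day 1 and 174.6 on day 14. Of the day 1 reads, 71.97% came from 1 cell, and the level was 3.37 CPM without it.

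The Ntng1 level of the control cells was less certain. Day 1 was 6.07-fold lower than control (5.83 to 6.31), but 63.2% of the control reads came from 1 cell, and the level was 28.9 CPM without it. In the 13 control cells that were not microglia-rich it was 6.33 CPM. The log2 ratio to control was then 0.78 on day 1 in place of -2.50 and 4.58 on day 14 in place of 0.53. Id2 and GFP cells stood side by side, with a log2 ratio of 0.02.

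Ntng2 (netrin-G2, which binds Lrrc4) was found in few cells. It was at 10.2 CPM in 11 day 1 cells, 2.29 in 2 day 14 cells, 12.4 in 12 GFP cells and 0.586 in 7 Id2 cells, and control cells had 2 reads, both in 1 cell. At or above 10 CPM were 0 of 31 control cells (0% to 11.2%), 9 of 58 on day 1, 2 of 29 on day 14, 7 of 59 with GFP and 3 of 71 with Id2. Id2 cells were 21.1-fold lower than GFP cells (17.99 to 25.01), a log2 ratio of -3.08 that stayed past 2-fold in each of 12 alternatives, including both title sets. The ratio of GFP to control cells was 416, with a counting interval of 115.2 to 3440.15. On day 1 and day 14 Ntng2 was not measured against control.

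The members were then read as a set against all genes measured in the same comparison. On day 1 against control, 5 of the 7 measured members were at least 2-fold lower (Slit1, Slit2, Robo2, Unc5c and Ntng1), where 15.2% of all 9079 measured genes were. Of these, Slit2 and Ntng1 reached the 20% of cells needed to be measured only in control cells, where they were high, so their place in the count follows in part from that filter. Without the microglia-rich cells both stood on the other side of control and 3 members were lower. None was at least 2-fold higher, where 23.2% of all genes were. On day 14 against control, 4 of 8 were lower (Slit1, Slit2, Slit3 and Unc5c; 15.8% of all genes) and 1 was higher (Robo3; 23.8%). Here, too, Slit2 reached 20% of cells only in control cells (29.0% against 6.90% on day 14), where it was high. Its place in this count follows in part from the filter. The median log2 ratio of the members was -1.71 on day 1 and -0.63 on day 14, beside 0.17 and 0.14 over all measured genes. Both comparisons share the control cells. Granule cell markers also stood lower than in control cells: 8 of 12 measured ones on day 1 and 6 of 12 on day 14 by at least 2-fold, and microglia markers stood lower on day 1 (11 of 12) and higher on day 14 (6 of 14). The part of either in the members' differences was not tested.

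On day 1 against day 14, 1 of 7 measured members was at least 2-fold higher (Slit3, beside 16.6% of all genes). Lower were 3 (Robo2, Dcc and Ntng1, beside 17.4% of all genes). Dcc and Ntng1 reached 20% of cells only on day 14, where they were high. Their place in this count follows in part from the filter. With Id2 against GFP, 2 of 8 were higher (Slit2 and Unc5c; 10.2%) and 2 lower (Slit1 and Ntng2; 12.6%), with a median of 0.26 beside -0.10 over all measured genes. Slit2 reached 20% of cells only with Id2 and Ntng2 only with GFP, each the group where it was high. The same limit holds for their place in these counts. Granule cell markers were lower by at least 2-fold for 3 of 12, and microglia markers higher for 3 of 4, and their part was not tested. With GFP against control, 1 of 8 was higher (Ntng2; 19.3%) and 1 lower (Unc5c; 13%). Ntng2 again reached 20% of cells only with GFP, where it was high.

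**Figure D3:**
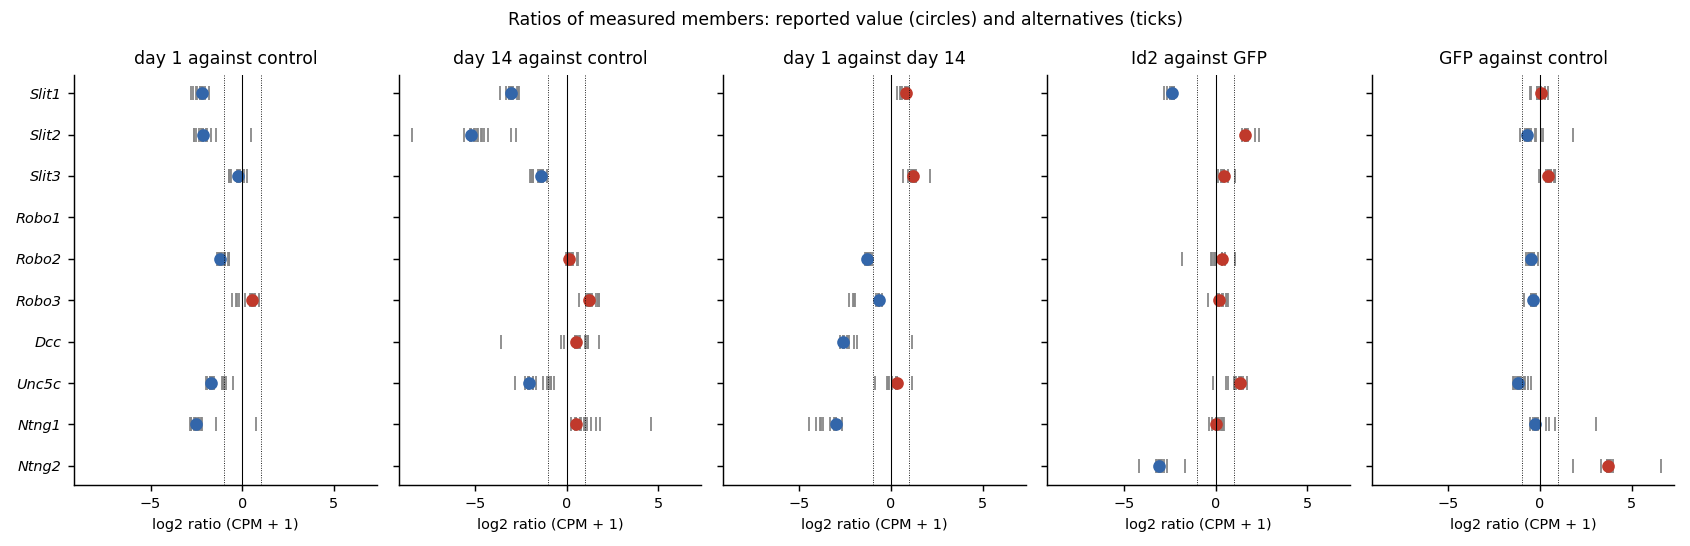
Log2 ratio of each measured member in the 5 comparisons, from CPM plus 1, as reported (circles, red above 0 and blue below) and under each alternative (grey ticks), with dotted lines at 2-fold. The Slit1 ticks stay below the lower dotted line for day 1, day 14 and Id2, while other ratios have ticks on both sides of 0, such as those of Ntng1 on day 1 (-2.50, with 1 tick at 0.78 from leaving out the microglia-rich cells) and of Robo2 with Id2 (1.07 and -1.85 in the 2 title sets).

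Slits and Robos were also read within the same cell. At least 1 Slit at or above 10 CPM was found in 28 of 31 control cells (90.3%, 74.2% to 97.96%), 62.1% of day 1 cells (48.4% to 74.5%), 58.6% of day 14 cells (38.9% to 76.5%), 91.5% among GFP cells (81.3% to 97.2%) and 77.5% among those with Id2 (66% to 86.5%). At least 1 Robo was found in 45.2% (27.3% to 63.97%), 51.7% (38.2% to 65.05%), 79.3% (60.3% to 92.01%), 52.5% (39.1% to 65.7%) and 45.1% (33.2% to 57.3%) in the same order. The Slit share was above the Robo share in control cells and below it on day 14. Both shares come from the same cells, so their separate intervals cannot be used to compare them, and the difference was not tested. Both were found in 41.9%, 36.2%, 44.8%, 49.2% and 39.4% of cells. The product of the 2 shares was close by, at 40.8%, 32.1%, 46.5%, 48.1% and 34.9%. Cells with no member at 10 CPM were 1 of 31 in control, 8 of 58 on day 1, 1 of 29 on day 14, 3 of 59 with GFP and 8 of 71 with Id2.

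Across cells, the levels of these genes followed Id2 weakly within each group. Spearman's rho with Id2 was computed for the 5 to 7 members with a read in 20% or more of a group's cells, which left out Robo1 in every group and Dcc in all but day 14 cells. It lay between -0.32 and 0.33, and Slit1 among the 71 Id2 cells had a rho of -0.04. For the 4 members with reads in at least 40% of all 248 cells, the genes with the most similar pattern were ranked among 4356 genes by the correlation over cells. The first for Slit1 was Matk (r = 0.34), for Slit3 Nktr (0.37), for Robo2 Nt5c2 (0.30) and for Unc5c Rabgap1l (0.35). Slit1 and Slit3 had an r of 0.19, and Slit1 and Robo2 of -0.03. Cells of a group share its preparation and differ in depth, so these values are descriptions.

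The rest of the pathway was read from 5 lists with 79 genes. On day 1, of 60 measured genes 15 were at least 2-fold higher and 13 lower than in control cells, with a median of 0.03, where 23.2% and 15.2% of all measured genes were. On day 14, 8 of 56 were higher and 10 lower, with a median of -0.10, where 23.8% and 15.8% of all were. For day 1 against day 14 the counts were 8 and 8 of 60 (16.6% and 17.4% of all), for Id2 against GFP 5 and 5 of 52 (10.2% and 12.6%), and for GFP against control 5 and 8 of 52 (19.3% and 13%). Some of these genes reached the share of cells needed to be measured only in the group where they were high. Their place in the counts follows in part from that filter.

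Other partners of Robo and Slit (17 genes) included the widest differences. Sdc1, a syndecan whose heparan sulfate chains can bind Slit, had reads in 15 day 1 cells, for a level of 58.8 CPM. Control cells had 0 reads of it. It was at 5.89 CPM on day 14, from 1 cell. Nell1, a secreted relative of the Robo3 ligand Nell2, stood at 1.40 CPM in 1 control cell, 29.97 in 12 day 1 cells and 215 in 17 day 14 cells. Nell2 itself was at 349 CPM in control cells, 256 on day 1, 314 on day 14, 506 among GFP cells and 335 among Id2 cells. Flrt3, a membrane protein that can associate with Robo1, stood at 256 CPM in control cells and 68.3 on day 14. In this list 5 of 13 measured genes were at least 2-fold higher on day 1 and 0 lower, and 3 of 11 were higher and 1 lower on day 14. Among all measured genes the shares were 23.2% and 15.2% on day 1, and 23.8% and 15.8% on day 14. Among the higher genes, Sdc1, Nell1 and Flrt2 reached the share of cells needed to be measured on day 1 but not in control cells. The same held for Nell1 and Sdc2 on day 14. Each was high in the group that admitted it, so its place in these counts follows in part from the filter.

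Other netrins and their receptors (14 genes) were partly near 0. Ntn1, the classical netrin ligand, was at or below 0.238 CPM in every group. Ntn5 stood at 31.5 CPM in control cells, 22.1 on day 1, 2.24 on day 14 and 81.4 with GFP. Ntn3 stood at 1.35 CPM in control cells and 14.2 on day 1. Rgmb, a ligand of the Dcc relative neogenin, was at 47.7 CPM in control cells, 16.5 on day 1 and 79.3 on day 14, and at 25.8 with Id2 against 63.5 with GFP. Unc5a, another Unc5 receptor, was at 126.3 CPM in control cells, 53.5 on day 1, 105.9 on day 14, 238 among GFP cells and 306 among Id2 cells.

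The list of netrin-G ligands held Lrrc4c and Lrrc4 and the related gene Lrrc4b, and all 3 were measured in each comparison. Lrrc4c, the partner of netrin-G1, was at 188 CPM in control cells, 227 on day 1, 143 on day 14, 94.7 among GFP cells and 79.2 among Id2 cells. Lrrc4, the partner of netrin-G2, stood at 52.8 CPM in control cells, 4.48 on day 1, 23.5 on day 14 and 16.5 with GFP. Of the 3, 2 were at least 2-fold lower on day 1, 1 on day 14 and 0 with Id2. Among all measured genes the shares lower were 15.2%, 15.8% and 12.6% in the same order. The 2 on day 1 were Lrrc4 and Lrrc4b, the latter at 2.49 CPM against 7.26 in control cells. Lrrc4 had a read in 18 of 58 day 1 cells and in 9 of 31 control cells.

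Inside the cell, Robo and Dcc act through adaptors, kinases and regulators of small GTPases (29 genes). Srgap2 and Srgap3 encode GTPase-activating proteins that bind Robo. Srgap2 stood at 100.2 CPM in control cells, 26.3 on day 1 and 26.2 on day 14, and Srgap3 at 137 in control cells, 86.9 on day 1 and 26.9 on day 14. Sos2, an exchange factor, was at 70.3 CPM in control cells, 12.2 on day 1 and 14.9 on day 14, and at 3.43 with Id2 against 25.3 with GFP. Pak1, a kinase downstream of Rac and Cdc42, was at 770.2 CPM with Id2 and 325 with GFP. Src, a kinase of netrin signalling, was at 9.10 CPM in control cells, 50.9 on day 1 and 13.6 on day 14. Of 26 measured genes of this list, 5 were higher and 6 lower by at least 2-fold on day 1 (23.2% and 15.2% of all measured genes), and 2 higher and 5 lower on day 14 (23.8% and 15.8%). Of 25 measured with Id2, 2 were higher and 3 lower (10.2% and 12.6%). Vasp, among the higher genes on both days, reached the share of cells needed to be measured only after kainate. Sos2, lower with Id2, reached it only with GFP. Their place in these counts follows in part from that filter.

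Heparan sulfate, the sugar chain that joins Slit to Robo, is made by the enzymes of the last list (16 genes). On day 14 Hs6st2 stood at 84.3 CPM against 12.9 in control cells and Ndst2 at 78.4 against 13.2, both sulfotransferases of the chain. With Id2, Ext2, a polymerase subunit, stood at 45.2 CPM against 111.7 with GFP, and Glce, an epimerase, at 65.8 against 29.5. In GFP cells, Glce was also lower than in control cells (29.5 against 144 CPM), as were Ndst1 (15.3 against 58.98) and Ext1 (9.22 against 35.7). In this list 3 of 10 measured genes were higher and 2 lower by at least 2-fold on day 1, near the 23.2% and 15.2% of all measured genes, and 3 higher and 1 lower on day 14, near 23.8% and 15.8%. Hs6st2 and Ndst2, among the higher genes on both days, had reads in only 2 control cells each (6.45%). They reached the share of cells needed to be measured only after kainate, where they were high. Their place in these counts follows in part from that filter.

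**Figure D4:**
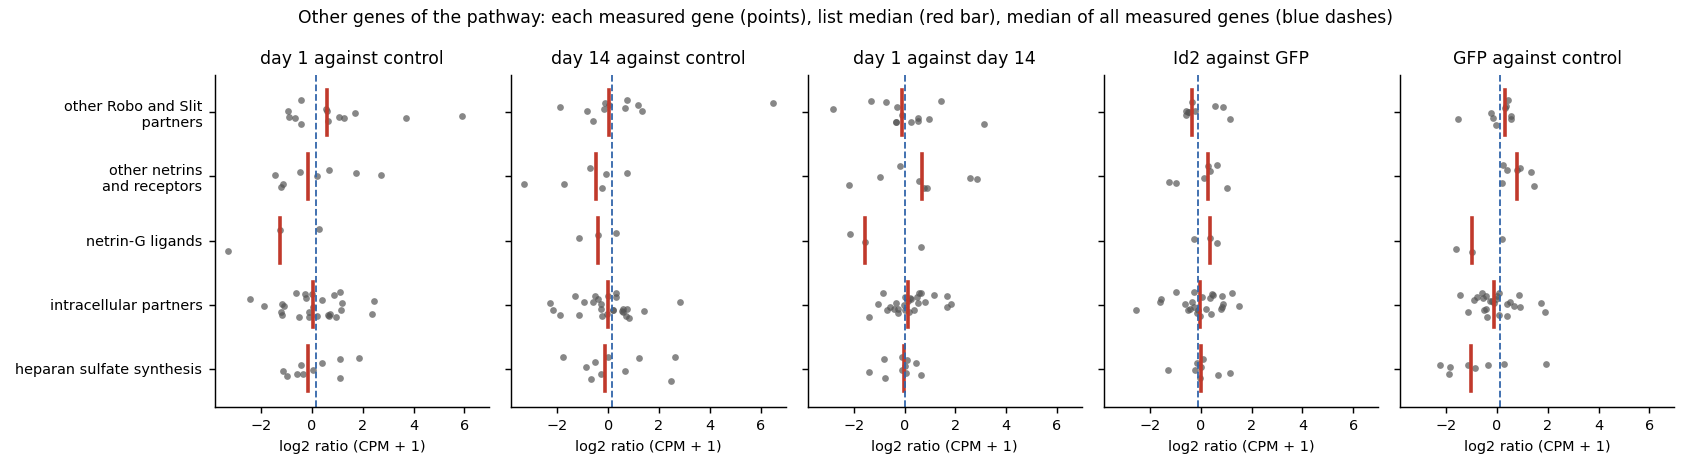
Log2 ratios, from CPM plus 1, of each measured gene of the 5 pathway lists (points) in the 5 comparisons, with the median of the list (red bar) and of all measured genes (blue dashes). Points lie on both sides of 0 in most lists, and the points farthest to the right are Sdc1 on day 1 and Nell1 on day 14.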

How the data were processed

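The libraries hold the cytosol of single granule cells drawn into a patch pipette and were made with the Nextera XT kit, per the labels. The submitters' processing notes name Trimmomatic, STAR, featureCounts and the build GRCm38. Strand and other settings were not found in these sources. One table that the authors deposited holds whole numbers for 22800 genes in 291 libraries. Its name calls it normalized, yet its values are whole and its totals differ between cells, so it was taken as raw counts. That reading of the unit rests on the values alone. The authors also deposited a scaled signal, in which the counts of each of 252 cells are multiplied by 1 factor. It served as an alternative only. For 13 of the 304 labelled samples no column carried the title, and these were left out.

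The 10 genes, the pathway and marker lists and the alternatives were chosen with earlier results of these data known. Counts of cells labelled Passed were summed per group and scaled to CPM in Python 3.11.15 (pandas 2.3.3, scipy 1.17.1). Log2 ratios were taken after adding 1 CPM, and folds come from CPM without it. Differences of at least 2-fold were counted among genes with a read in 20% or more of a group's cells and 5 CPM in 1 group. From the pathway lists, examples come from the 5 highest and 5 lowest ratios of each comparison. Nell2, Ntn1, Unc5a and Lrrc4c fall outside that rule and were chosen after their values were seen. Cells were thinned to 100000 reads, which left out 2 control cells. TMM scaling used edgeR 4.0.16. No test was run, since each group counts as 1 sample. The steps were tested on simulated data, drawn with counting error only from 1 pooled profile per comparison. Those data held no differences between cells, so they cannot show how far a ratio depends on single cells. Left out were 2 cells of the other side, given at the end, and 2 libraries labelled low_DG.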

Additional observations from a re-analysis of the deposited data

Results flagged for a closer look

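For 2 of the members measured against control on both days, the days after kainate stood on opposite sides of the control cells. Neither difference was tested. Dcc was not measured against control on day 1 and is not counted here. Robo2 had a log2 ratio to control of -1.20 at day 1 and 0.13 at day 14, and day 14 exceeded day 1 by 1.33. With only the J-titled controls the day 14 ratio was -0.03. Ntng1 had a log2 ratio to control of -2.50 at day 1 and 0.53 at day 14, and day 14 exceeded day 1 by 3.03. Without the microglia-rich cells both days stood above control, at 0.78 and 4.58. Both ratios of a gene share the control cells, and day 1 and day 14 cells carry different title numbers.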

How the results depend on the processing

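No paired analysis was possible because the labels number no replicates and name no animal. Of 130 counts of members past 2-fold under alternatives, 24 moved by more than 1.5 times. For day 1 against control, 3 in place of 5 members were lower without the microglia-rich cells, with only the controls without a J title, and with GFP cells as control, and 1 in place of 0 was higher with no filter on low values. For day 14 against control, 3 in place of 1 were higher as a mean over cells, from the scaled signal and without the deepest cells, and 2 with no filter, without the top cell of each gene, with only the controls without a J title and with GFP cells as control. For day 1 against day 14, higher members numbered 0 in place of 1 as a mean over cells and without the deepest cells, 3 with no filter, and 2 without the top cell or without the microglia-rich cells. For Id2 against GFP, 1 in place of 2 was higher without the deepest cells or without the top cell, and 4 in place of 2 were lower with no filter. For GFP against control, lower members numbered 0 in place of 1 as a mean over cells, after thinning and from the scaled signal, and 2 with no filter, and 3 in place of 1 were higher without the microglia-rich cells. Of the ratios past 2-fold, 4 changed sign: Slit2 (0.48) and Ntng1 (0.78) for day 1 against control and Dcc (1.17) for day 1 against day 14, each without the microglia-rich cells, and Unc5c for Id2 against GFP in the second title set (-0.12). The causes were not tested. The median over all measured genes was 0.17 for day 1 against control and 0.10 under TMM scaling, and 0.14 and 0.06 for day 14. Depth was lowest in control cells, with 2 cells under 100000 reads.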

Other observations

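The labels also hold 2 passing cells of the side labelled KA1_DG_contra at day 1, which entered no comparison. They had 1838942 and 6486515 reads. Slit1 stood at 2.18 and 0.462 CPM, Slit3 at 9.24 and 52.7, Unc5c at 9.79 and 127.2, and Robo3 at 214.8 and 0. Slit2, Robo1, Dcc and Ntng1 had 0 reads in both cells. No member exceeded the highest control cell in either.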
